A study of Homo sapiens with 36 samples.

Results

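The genes described here make cholesterol and fatty acids from acetyl-CoA or control that synthesis. They were given as a list of 31 gene symbols of this function. Through the gene identifiers, 30 of the 31 were matched to 1 row each of the 63677 genes in the count tables. ACACA had no matching row and has no value here. All 30 matched genes had enough counts to enter the test, among 19180 genes tested. The lowest count of any of them in any library was 7. They fall into 4 roles, with 7 genes from acetyl-CoA to farnesyl diphosphate, 11 genes from squalene to cholesterol, 6 genes of sterol sensing, transcriptional control and sterol transport, and 6 genes of fatty acid synthesis and desaturation.

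RNA-seq was performed on A549 cells, an established human non-small cell lung cancer line with epithelial origin, grown in RPMI medium with 10% serum. Cells cultured with IL-1β at 1 ng/ml, an inflammatory cytokine, were collected after 6, 15 and 21 days of exposure. Cells exposed for 21 days and then cultured without the cytokine were collected 6, 15 and 30 days after withdrawal. Untreated cells were collected at each of these 6 times, giving 12 groups of 3 libraries, which the labels number as biological replicates 1 to 3 without saying how they were separated. The p-values therefore measure the spread between those libraries, in 1 cell line. In bulk RNA, fewer cells expressing a gene and less of its RNA per cell cannot be told apart.

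Cholesterol is built from acetyl-CoA through the mevalonate pathway, which ends in farnesyl diphosphate, and then through squalene and lanosterol. Fatty acids are built from the same acetyl-CoA, elongated, and given double bonds by desaturases. The transcription factors SREBP-1 and SREBP-2, the products of SREBF1 and SREBF2, drive most of these genes when sterols in the endoplasmic reticulum are low. SCAP escorts the factors to the Golgi for cleavage, and INSIG1 and INSIG2 hold SCAP back when sterols are high.

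Each library had 9116032 to 23570026 reads on genes (median 15902700). The keratins KRT8, KRT18 and KRT7 were high in all 36 libraries, but KRT8 and KRT18 had lower means with IL-1β at each time. KRT8 ran from 1768 to 4818 CPM (a gene's share of its library's counts, scaled to a common total) in controls and from 538 to 3182 CPM with IL-1β. KRT18 ran from 935 to 2514 CPM and from 265 to 1730 CPM, and KRT7 from 1166 to 1868 CPM and from 1146 to 2189 CPM. Another epithelial marker, EPCAM, stayed at or below 1.63 CPM. Of the 8 matched markers of leukocytes, endothelium and fibroblasts, 7 stayed at or below 0.643 CPM in all libraries, with CD3E at 0 in 36 of 36, LUM in 34, CDH5 in 26, PTPRC in 22, VWF in 15, PDGFRB in 5 and DCN in 1. CD14, which monocytes carry, was the exception and ran from 1.67 to 16.4 CPM, at 1.67 to 10.1 CPM in controls and 2.203 to 16.4 CPM in IL-1β libraries, and its part in the results was not tested. The surfactant gene SFTPC, which defines alveolar type II cells, reached no more than 0.261 CPM, and the surfactant gene SFTPB ran from 0.164 to 1.67 CPM. IL6 lay between 78.8 and 280.2 CPM in the exposed libraries and did not exceed 7.85 CPM in any control. In 11 of the 36 libraries mitochondrial genes took over 10% of the counts, from 11.8% to 24.6%, against 5.61% to 7.75% in the other 25. Of these 11, called mitochondria-rich libraries below, 6 were controls (day 6 replicate 2, withdrawal day 6 replicates 1 and 2, withdrawal day 15 replicates 2 and 3, withdrawal day 30 replicate 2) and 5 were IL-1β libraries (day 15 replicate 3, day 21 replicate 2 and replicate 2 at each withdrawal time). The sterol and fatty acid genes moved with this share, so their counts are also given below without these libraries.

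At day 21 of exposure to IL-1β, 9 of the 30 sterol and fatty acid genes had fallen and none had risen at an adjusted p below 0.05 (edgeR quasi-likelihood test, Benjamini-Hochberg adjustment over all 19180 genes). Of all genes tested, 3.09% were called lower and 3.31% higher. The 9 were the mevalonate pathway genes HMGCS1 and IDI1, the squalene and post-squalene genes FDFT1, SQLE and MSMO1, the sterol carrier STARD4, and the desaturases SCD, FADS1 and FADS2. Of these, 4 also passed the threshold of a more than 2-fold difference (HMGCS1, STARD4, SCD and FADS2), which 2.06% of all genes did. At day 21 the log2 difference was negative for 28 of the 30 genes, with a median of -0.52 over the 30 genes against -0.01 over all genes tested. The 3 IL-1β libraries lay below the 3 controls for 20 of the 30 genes, and for 15.2% of all genes.

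At day 15 of exposure 3 genes had fallen, SCD, FADS2 and TM7SF2, each by more than 2-fold. Among all genes, 3.11% were called lower, 3.32% higher, and 2.3% lower by more than 2-fold. The median log2 difference over the 30 genes was -0.46, with 26 of them negative, and 13 had IL-1β libraries wholly below the controls, as had 13.9% of all genes. At withdrawal day 6, 3 genes were called lower, STARD4, SCD and FDFT1, where 0.996% of all genes were called lower and 1.62% higher. STARD4 and SCD were lower by more than 2-fold, as were 0.725% of all genes. The median over the 30 genes was -0.44 at that time, 26 were negative, and 12 did not overlap with the controls, compared with 5.24% of all genes.

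No gene of the 30 was called at the other 3 times. At day 6 of exposure the median was -0.20, 9 genes had an unadjusted p below 0.05, and 9 lay below the controls without overlap (11.2% of all genes). Among all genes at that time, 1.98% were called lower and 2.29% higher. At withdrawal day 15 the median was -0.16, 9 genes had an unadjusted p below 0.05, and 10 did not overlap with the controls (4.9% of all genes), while 0.511% and 0.85% of all genes were called lower and higher. That median was -0.33 without replicate 3, -0.29 with the mitochondria-rich libraries left out and -0.33 with a yes-or-no covariate marking those libraries. At withdrawal day 30 the median was -0.17, 4 genes had an unadjusted p below 0.05, and 5 did not overlap (5.11% of all genes), with 0.626% of all genes called lower and 0.683% higher, and the median was -0.09 without replicate 1. DESeq2 also called none of the 30 at these 3 times, but some other fits did. With the covariate 5 genes were called lower at day 6 (3.74% of all genes), where the median was -0.36. With the mitochondria-rich libraries left out, the day 6 median was -0.33.

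**Figure D1:**
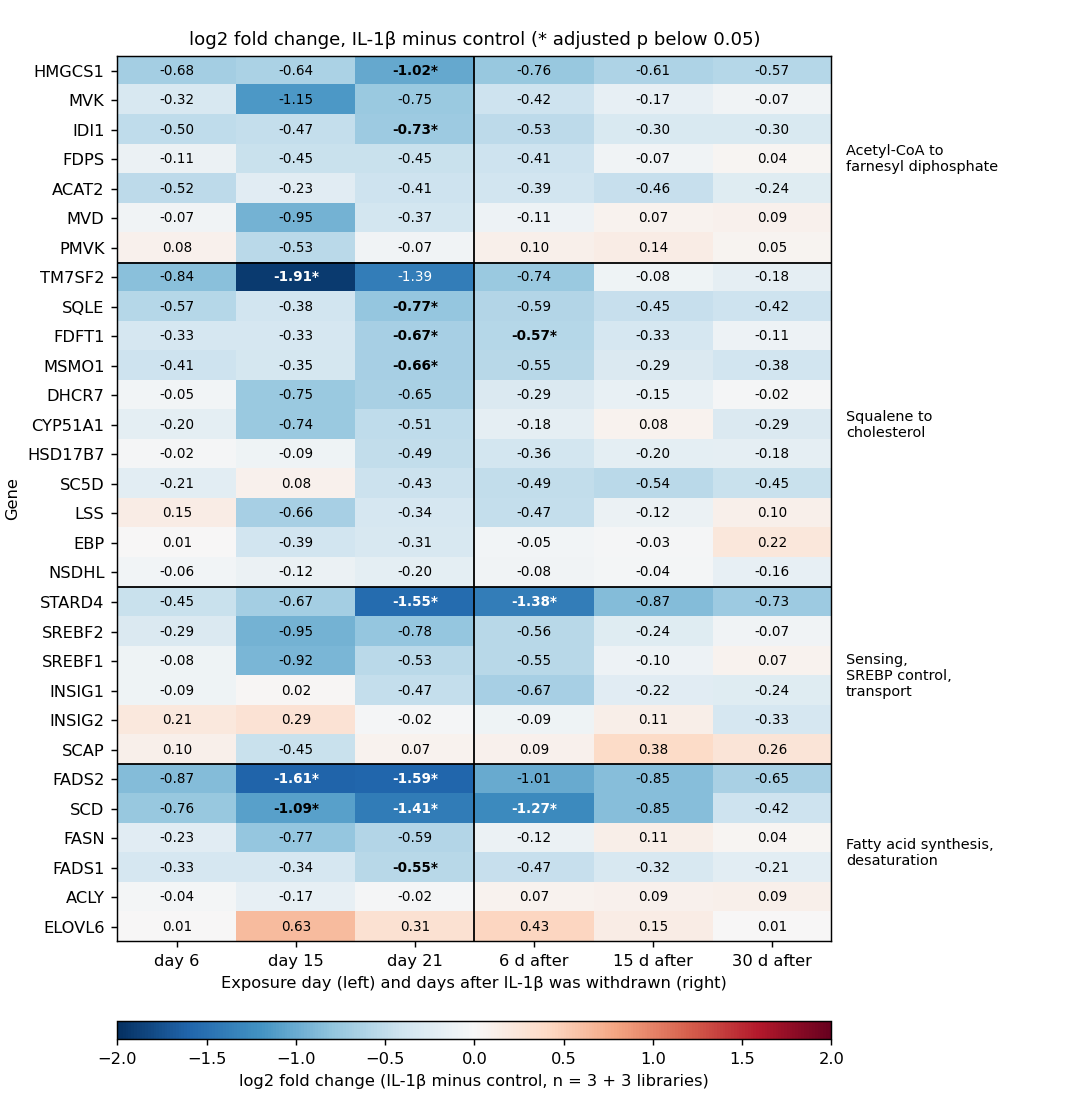
Log2 fold change (IL-1β minus control, 3 against 3 libraries) of the 30 genes in rows, grouped by role, at the 6 time points in columns; asterisks and bold type mark an adjusted p below 0.05. Of the 15 marked values, all negative, 9 stand in the day 21 column, and the columns of day 6 and of withdrawal days 15 and 30 hold none.

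These counts moved with the libraries included. Without replicate 1 in any group, none of the 30 genes was called at any time, and the genes called lower among all genes were 132 at day 15, 137 at day 21 and 11 at withdrawal day 6, against 597, 593 and 191 in the full set. The 15 log2 differences that had been called ranged from -2.13 to -0.48 in that fit. Without replicate 2, 4 genes were called lower at day 15, 4 at day 21 and none at withdrawal day 6, where 3.02%, 1.7% and 0.401% of all genes were called lower. Without replicate 3 the counts were 8, 10 and 8, and 1.6%, 2.39% and 0.953% of all genes were called lower. With the 11 mitochondria-rich libraries left out, which leaves 1 control library at each of withdrawal days 6 and 15, 7 genes were called lower at day 6, 16 at day 15, 15 at day 21 and 3 at withdrawal day 6, and the elongase ELOVL6 was called higher at day 15 and at withdrawal day 6. All genes called lower in that fit were 3.33%, 5.44%, 5.06% and 1.27% of those tested at the same 4 times.

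**Figure D2:**
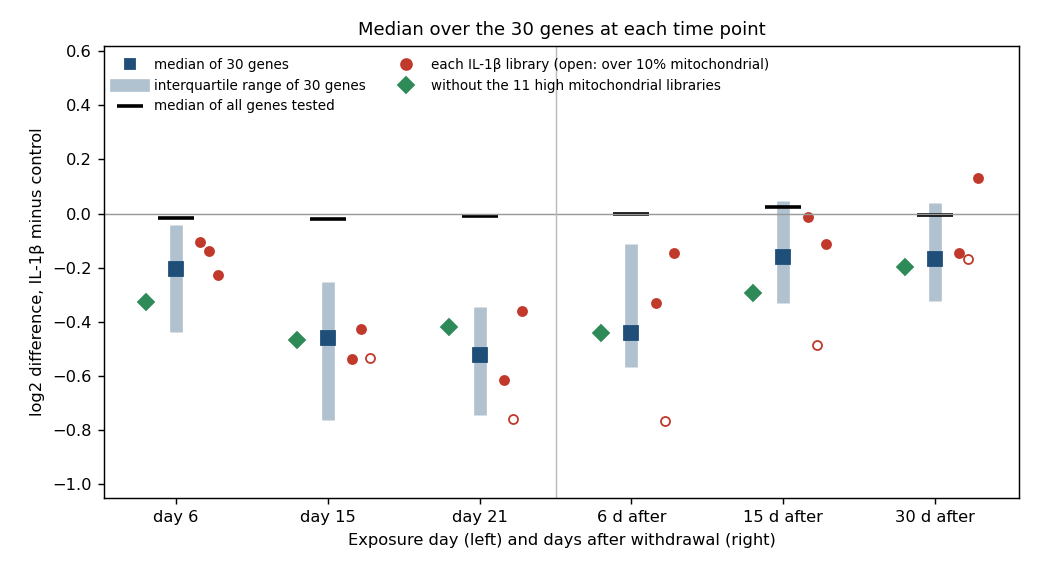
Log2 difference (IL-1β minus control) by time point: squares and bars give the median and interquartile range of the 30 genes, circles the median in each IL-1β library relative to the control mean of that time, diamonds the median with the 11 mitochondria-rich libraries left out, and black dashes the median of all genes tested. The squares lie lowest at day 21 (-0.52) and nearest to 0 at withdrawal days 15 (-0.16) and 30 (-0.17).

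The promoters of 5 of the genes are shown because 4 of them fell and the other, SREBF2, encodes SREBP-2. RefSeq promoter windows of 300 bases, from 250 bases before to 50 bases after a gene's start, were available for 26 of the 30 genes on GRCh38.p14, in 34 windows. SREBP binds a sterol regulatory element, searched here as TCACNCCAC, and it acts with NF-Y, which binds CCAAT. Each motif was searched on both strands. Capitals mark TCACNCCAC and CCAAT, or ATTGG where CCAAT lies on the other strand.
HMGCS1, chr5:43313363-43313662, minus strand: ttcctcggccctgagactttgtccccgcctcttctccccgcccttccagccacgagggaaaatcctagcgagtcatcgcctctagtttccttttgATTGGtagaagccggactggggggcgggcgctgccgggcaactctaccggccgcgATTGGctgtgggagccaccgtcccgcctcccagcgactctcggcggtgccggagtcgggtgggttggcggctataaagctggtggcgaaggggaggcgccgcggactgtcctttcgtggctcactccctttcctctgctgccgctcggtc
MSMO1, chr4:165327419-165327718, plus strand: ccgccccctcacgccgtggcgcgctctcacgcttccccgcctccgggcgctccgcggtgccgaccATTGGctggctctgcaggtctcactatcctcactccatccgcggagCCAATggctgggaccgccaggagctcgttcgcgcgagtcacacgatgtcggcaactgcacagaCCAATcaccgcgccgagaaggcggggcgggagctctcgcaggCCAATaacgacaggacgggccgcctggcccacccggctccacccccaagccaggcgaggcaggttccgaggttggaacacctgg
STARD4, chr5:111512486-111512785, minus strand: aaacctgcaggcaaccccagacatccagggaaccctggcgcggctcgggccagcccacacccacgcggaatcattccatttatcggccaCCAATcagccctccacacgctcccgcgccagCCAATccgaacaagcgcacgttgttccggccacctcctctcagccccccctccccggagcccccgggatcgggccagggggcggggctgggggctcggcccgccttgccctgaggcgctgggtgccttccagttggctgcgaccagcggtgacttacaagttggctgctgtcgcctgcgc
SCD, chr10:100346983-100347282, plus strand: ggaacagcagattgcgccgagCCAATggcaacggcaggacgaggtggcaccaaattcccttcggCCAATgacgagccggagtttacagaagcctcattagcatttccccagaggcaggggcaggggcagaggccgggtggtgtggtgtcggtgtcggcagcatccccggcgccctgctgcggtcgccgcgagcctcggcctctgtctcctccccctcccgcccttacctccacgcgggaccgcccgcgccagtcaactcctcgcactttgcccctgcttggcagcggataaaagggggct
SREBF2, chr22:41832855-41833154, plus strand: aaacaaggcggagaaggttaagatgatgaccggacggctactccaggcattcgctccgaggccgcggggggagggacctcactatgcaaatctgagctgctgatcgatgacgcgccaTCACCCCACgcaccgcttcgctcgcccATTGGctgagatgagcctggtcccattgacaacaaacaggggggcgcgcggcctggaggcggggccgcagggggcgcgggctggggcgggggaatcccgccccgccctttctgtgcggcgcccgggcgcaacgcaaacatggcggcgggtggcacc
CCAAT was found in 22 of the 34 windows (64.7%) and in 34.6% of 35116 promoter windows of all genes. Of the 26 genes, 19 held it, among them genes not called at any time in the main fit of all libraries, such as MVK, NSDHL and EBP. No CCAAT was found in the window of FADS1, which fell. Whether the motif goes with the fall was not tested. TCACNCCAC was found in 1 window, that of SREBF2, and in 1.13% of all windows. GGGCGG, the core of the GC box bound by Sp1, was found in 31 of the 34 windows (91.2%) and in 45.0% of all. These matches describe letters only, and an element outside the windows or spelled differently would not be counted.

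Among the 7 genes from acetyl-CoA to farnesyl diphosphate, 2 fell at day 21. HMGCS1 (ENSG00000112972, chr5:43287572-43313614 on GRCh37) encodes the cytosolic synthase that makes HMG-CoA, and its promoter window shown above held 2 CCAAT motifs. A second HMGCS1 window, chr5:43313132-43313431 on GRCh38.p14, which overlaps it, held none. At day 21 its level was 99.3, 88.4 and 111 CPM in the 3 controls and 47.0, 39.5 and 60.2 CPM in the 3 IL-1β libraries. Every IL-1β library was below every control, and the log2 difference was -1.02 ± 0.21 (SE, 2.03-fold lower, edgeR adjusted p = 0.00194). HMGCS1 was also below the controls without overlap at all 3 withdrawal times. At withdrawal day 30 it measured 60.8, 68.1 and 57.4 CPM in controls and 39.5, 41.2 and 44.5 CPM in cells that had been exposed. That log2 difference of -0.57 ± 0.21 was not called (edgeR adjusted p = 0.311). Genes annotated on the opposite strand cover 37.7% of the exonic length of HMGCS1, and the strand setting of the counting is not given in the sources used here, so reads of the overlapping genes cannot be told apart.

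IDI1 (ENSG00000067064, chr10:1085092-1095059) encodes isopentenyl diphosphate isomerase. At day 21 it measured 60.4, 59.4 and 65.6 CPM in controls and 34.0, 30.8 and 46.7 CPM with IL-1β. The groups did not overlap, and IDI1 fell by 0.73 ± 0.16 on the log2 scale (edgeR adjusted p = 0.00352). As with HMGCS1, genes annotated on the opposite strand cover part of the exonic length, 15% for IDI1, 17.2% for ACAT2 and 18.6% for FDPS. The IL-1β libraries of IDI1 lay below the controls at all 6 times, but no other time was called. The other 5 genes of this stage (ACAT2, MVK, PMVK, MVD and FDPS) had log2 differences from -0.75 (MVK) to -0.07 (PMVK) at day 21. None was called at any time in the main fit of all libraries. MVK, which phosphorylates mevalonate, had the largest difference of these at day 15, -1.15 with an adjusted p of 0.0919 in edgeR. With the mitochondria-rich libraries left out, MVK was called lower at days 6, 15 and 21 and FDPS at days 15 and 21. ACAT2 was then called lower at day 6 and MVD at day 15. With a covariate marking those libraries, FDPS was called lower at days 15 and 21 and withdrawal day 6. In that fit ACAT2 was called lower at days 6 and 21, and MVK at day 15 and withdrawal day 6.

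Of the 11 genes from squalene to cholesterol, all 11 had negative differences at day 21, and 3 were called. FDFT1 (ENSG00000079459, on chromosome 8) encodes squalene synthase, the first enzyme committed to sterols. At day 21 FDFT1 measured 95.8, 104 and 110.04 CPM in controls and 56.8, 63.2 and 74.7 CPM with IL-1β. The lowest control stood above the highest IL-1β library, and the log2 difference was -0.67 ± 0.14 (edgeR adjusted p = 0.00208). FDFT1 stayed lower 6 days after withdrawal, at 60.6, 67.5 and 72.9 CPM against 103, 97.2 and 98.7 CPM in controls. That difference of -0.57 ± 0.14 was called (edgeR adjusted p = 0.0200). By withdrawal day 30 the FDFT1 groups overlapped, with a log2 difference of -0.11 ± 0.14.

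SQLE (ENSG00000104549, on chromosome 8) encodes squalene epoxidase, a rate-limiting oxygen-dependent step. Its 3 controls at day 21 measured 99.7, 97.7 and 97.6 CPM and its IL-1β libraries 60.8, 60.7 and 51.7 CPM. The gap between the groups was wider than the range within either, and SQLE fell by 0.77 ± 0.17 (log2, edgeR adjusted p = 0.00386). MSMO1 (ENSG00000052802, chr4:166248819-166264316) encodes the methylsterol monooxygenase that acts on lanosterol derivatives. At day 21 MSMO1 measured 51.7, 51.6 and 58.2 CPM in controls and 34.5, 30.99 and 36.9 CPM with IL-1β. It fell by 0.66 ± 0.16 (log2, edgeR adjusted p = 0.00992) with no overlap. At day 15, IL-1β replicates 1 and 2 of MSMO1 stood at 30.5 and 30.0 CPM while replicate 3, a mitochondria-rich library, stood at 51.9 CPM, above its 3 controls. That library was inside or above the control range for HMGCS1, SQLE, FDFT1, STARD4 and INSIG1 as well.

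TM7SF2 (ENSG00000149809, chr11:64879317-64883856) encodes a sterol C14 reductase and was among the least expressed of the 30 genes. It was called at day 15 only, at 2.70, 3.43 and 1.34 CPM with IL-1β against 6.98, 7.21 and 14.5 CPM in controls. Every IL-1β library was lower, and the log2 difference was -1.91 ± 0.58 (edgeR adjusted p = 0.0452). Its day 21 difference of -1.39 ± 0.57 was not called (edgeR adjusted p = 0.208). In the controls alone TM7SF2 was lower by 0.91 on the log2 scale in the 6 mitochondria-rich libraries than in the other 12, and the lowest of its day 15 IL-1β libraries is of that kind. With the mitochondria-rich libraries left out, the TM7SF2 difference at day 15 was -1.65 (edgeR adjusted p = 0.00885). Without replicate 3, which holds the highest control and the lowest IL-1β library, it was -1.20 and was not called (edgeR adjusted p = 0.602). The other 7 genes (LSS, CYP51A1, NSDHL, HSD17B7, EBP, SC5D and DHCR7) ranged from -0.65 (DHCR7) to -0.20 (NSDHL) at day 21. None was called at any time in the main fit of all libraries. With the mitochondria-rich libraries left out, DHCR7 was called lower at days 15 and 21 and SC5D at day 21. With a covariate marking those libraries, LSS was called lower at withdrawal day 6 and SC5D at day 21. SC5D, a sterol desaturase, was the lowest of these 7 at each withdrawal time, with -0.49, -0.54 and -0.45. HSD17B7 has a closely similar pseudogene, and how its reads were shared between the 2 copies is unknown.

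**Figure D3:**
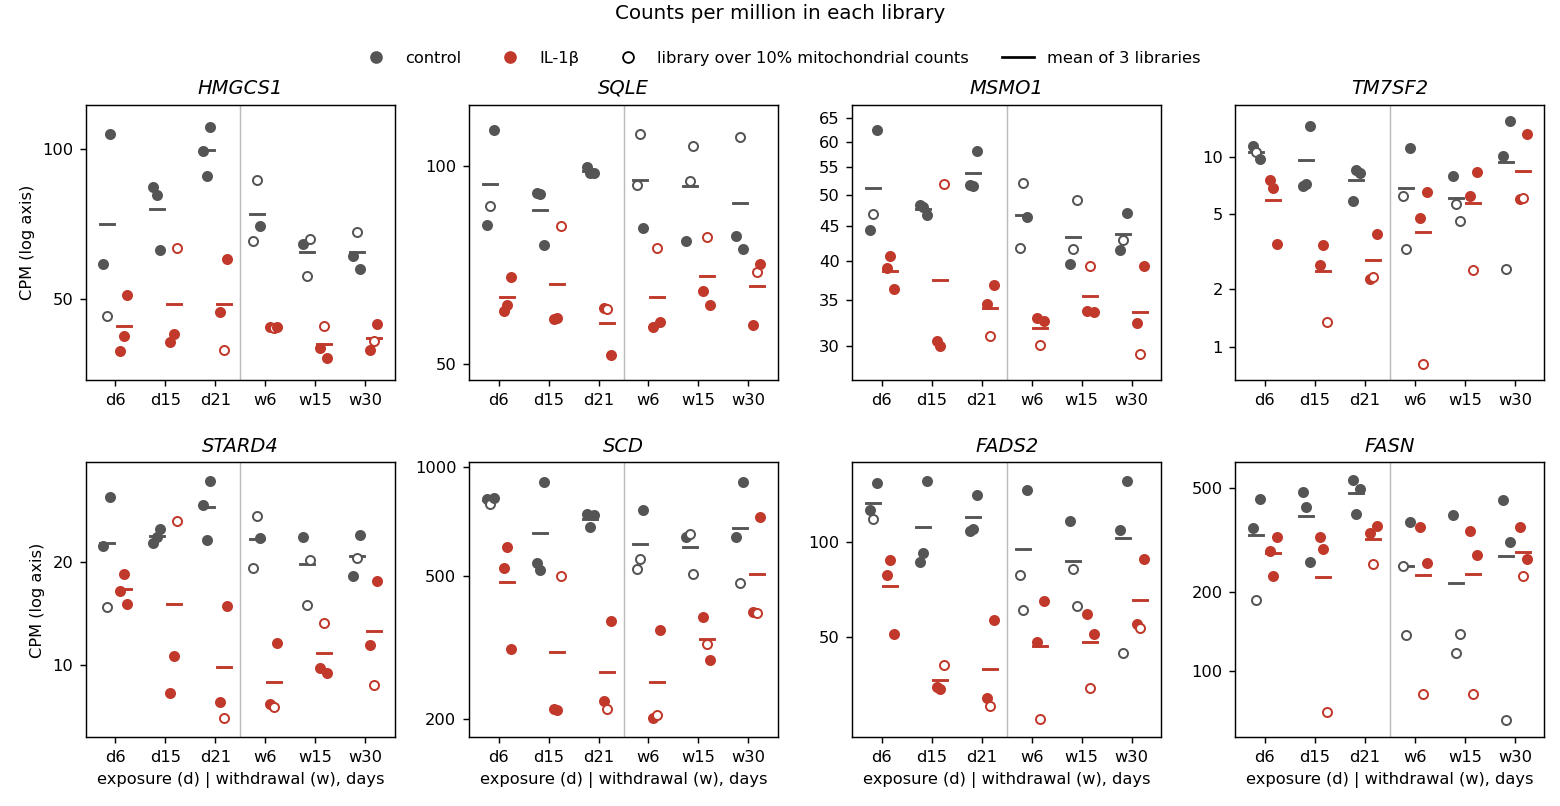
CPM (log axis) in each of the 36 libraries for 8 genes, with controls in grey, IL-1β in red, open symbols for libraries with over 10% mitochondrial counts and lines for the mean of 3 libraries (d, exposure day; w, days after withdrawal). At d21 the red and grey points do not overlap in any panel, and FASN and TM7SF2 show open symbols far below the filled ones in several groups.

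In the group of sensing, control and transport, STARD4 was the 1 gene called, at day 21 and withdrawal day 6. STARD4 (ENSG00000164211, chr5:110831731-110848288) encodes a cytosolic carrier that moves cholesterol between membranes. Its level at day 21 was 29.3, 23.2 and 34.4 CPM in controls and 7.77, 6.96 and 14.9 CPM with IL-1β. The groups were well apart, and the log2 difference was -1.55 ± 0.34 (2.92-fold lower, edgeR adjusted p = 0.00344). At withdrawal day 6 STARD4 measured 19.2, 27.2 and 23.5 CPM in controls and 7.65, 7.54 and 11.6 CPM in previously exposed cells. The difference remained 2.61-fold (log2 -1.38 ± 0.35, edgeR adjusted p = 0.0214). STARD4 did not overlap with controls at withdrawal days 15 and 30 either, where the log2 differences were -0.87 and -0.73 and neither was called.

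The transcription factor genes themselves were not called at any time. SREBF2 (ENSG00000198911, chr22:42229109-42303310), whose promoter window held both motifs, measured 119, 120.1 and 159 CPM in day 15 controls and 72.6, 74.0 and 59.5 CPM with IL-1β. The groups did not overlap, with a log2 difference of -0.95 ± 0.30 and an adjusted p of 0.0581 in edgeR. At day 21 SREBF2 again did not overlap, at 133, 129.9 and 146 CPM in controls and 74.0, 64.9 and 99.5 CPM with IL-1β, with a difference of -0.78 ± 0.30 (edgeR adjusted p = 0.165). With the mitochondria-rich libraries left out, SREBF2 was called at both times, at -0.85 (edgeR adjusted p = 0.00399) and -0.63 (edgeR adjusted p = 0.0294).

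SREBF1 (ENSG00000072310, chr17:17713713-17740316) measured 175, 166 and 261 CPM in day 15 controls and 125, 115 and 78.4 CPM with IL-1β, a difference of -0.92 ± 0.42 without overlap (edgeR adjusted p = 0.253). It was called lower at day 15 with the mitochondria-rich libraries left out (-0.74, edgeR adjusted p = 0.0264) and at withdrawal day 6 with a covariate marking them (-0.90, edgeR adjusted p = 0.0243). At day 21 the SREBF1 groups overlapped, at 211, 186 and 258 CPM in controls and 133, 109.97 and 209 CPM with IL-1β. INSIG1 (ENSG00000186480, chr7:155089486-155101945), itself induced by SREBP, measured 102, 93.9 and 109.7 CPM in day 21 controls and 65.8, 56.7 and 97.6 CPM with IL-1β. These groups overlapped as well, and the difference of -0.47 ± 0.24 was not called (edgeR adjusted p = 0.418). INSIG2 and SCAP had day 21 differences of -0.02 and 0.07.

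Among the 6 measured genes of fatty acid synthesis, the 3 desaturases fell while the genes before them were not called. SCD (ENSG00000099194, chr10:102106990-102124583) encodes stearoyl-CoA desaturase, which makes oleate and palmitoleate, and it was the most highly expressed of the 30 genes per length. SCD measured 541, 519 and 907 CPM in day 15 controls and 214, 212 and 498 CPM with IL-1β, with the IL-1β replicate 3 just below the lowest control. The log2 difference was -1.09 ± 0.33 (edgeR adjusted p = 0.0405). At day 21 SCD stood at 738, 680.02 and 733 CPM in controls and at 225, 213 and 374 CPM with IL-1β, 2.65-fold lower (log2 -1.41 ± 0.33, edgeR adjusted p = 0.00574). SCD was thus clear of the control range in all IL-1β libraries of both times.

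At withdrawal day 6 SCD measured 202, 206 and 353 CPM against 521, 557 and 759 CPM in controls, 2.41-fold lower (log2 -1.27 ± 0.33, edgeR adjusted p = 0.0273). At withdrawal day 15 the 3 libraries, at 384, 323 and 292 CPM, were still below controls of 640.05, 649.97 and 506 CPM, but the difference of -0.85 ± 0.32 was not called (edgeR adjusted p = 0.329). At withdrawal day 30 the SCD groups overlapped.

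FADS2 (ENSG00000134824, chr11:61560452-61634826) encodes the delta-6 desaturase of polyunsaturated fatty acid synthesis. At day 15 FADS2 measured 86.5, 92.3 and 156 CPM in controls and 34.7, 34.3 and 40.9 CPM with IL-1β. The IL-1β libraries lay close together and below every control, with a log2 difference of -1.61 ± 0.39 (3.05-fold lower, edgeR adjusted p = 0.00770). At day 21 FADS2 stood at 108, 109.8 and 141 CPM in controls and 32.1, 30.2 and 56.6 CPM with IL-1β, again with no overlap and with a log2 difference of -1.59 ± 0.38 (3.01-fold lower, edgeR adjusted p = 0.00770). The main fit called FADS2 at no other time. With a covariate marking the mitochondria-rich libraries, FADS2 was also called lower at day 6 and at withdrawal days 6 and 15. FADS1 (ENSG00000149485, chr11:61567099-61596790), the neighbouring delta-5 desaturase, moved less. FADS1 measured 441, 428 and 446 CPM in day 21 controls and 289.8, 265 and 344 CPM with IL-1β, a fall of 0.55 ± 0.15 on the log2 scale (edgeR adjusted p = 0.0242). The FADS1 and FADS2 gene bodies overlap on opposite strands, and genes annotated on the opposite strand share 4.79% and 4.64% of their exonic lengths.

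FASN (ENSG00000169710, chr17:80036214-80056170) encodes fatty acid synthase, which makes palmitate. At day 21 FASN measured 537, 399 and 497 CPM in controls and 338, 256 and 359 CPM with IL-1β. The 3 IL-1β libraries lay below the 3 controls, but the difference of -0.59 ± 0.60 was far from the threshold (edgeR adjusted p = 0.926). FASN varied widely between libraries of 1 group, from 65.0 to 451 CPM among the 3 controls of withdrawal day 30. The lowest of these 3 was mitochondria-rich. ACLY, which makes cytosolic acetyl-CoA, stayed between -0.17 and 0.09 at all 6 times. ELOVL6, which elongates palmitate, was the 1 gene of the 30 whose IL-1β libraries lay above the controls at days 15 and 21, with differences of 0.63 and 0.31 that were not called.

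Between genes, levels were compared per exonic length as RPKM (CPM divided by the exonic length in kilobases). In the 18 control libraries the medians ran from 1.34 RPKM for CYP51A1 to 126.8 RPKM for SCD and 121.8 RPKM for ACLY. The fallen genes were spread over this order, at ranks 1 (SCD), 3 (FADS1), 8 (SQLE), 9 (FDFT1), 13 (MSMO1), 17 (IDI1), 18 (FADS2), 19 (HMGCS1), 25 (STARD4) and 28 (TM7SF2). SCD (91.1 to 173 RPKM) and ACLY (71.2 to 133 RPKM) overlapped with each other and stood clear of all other genes. At day 21 the mean level of SCD was 137 RPKM in controls and 51.6 RPKM with IL-1β, which brought it from above ACLY (123.7 RPKM with IL-1β) to well under it.

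**Figure D4:**
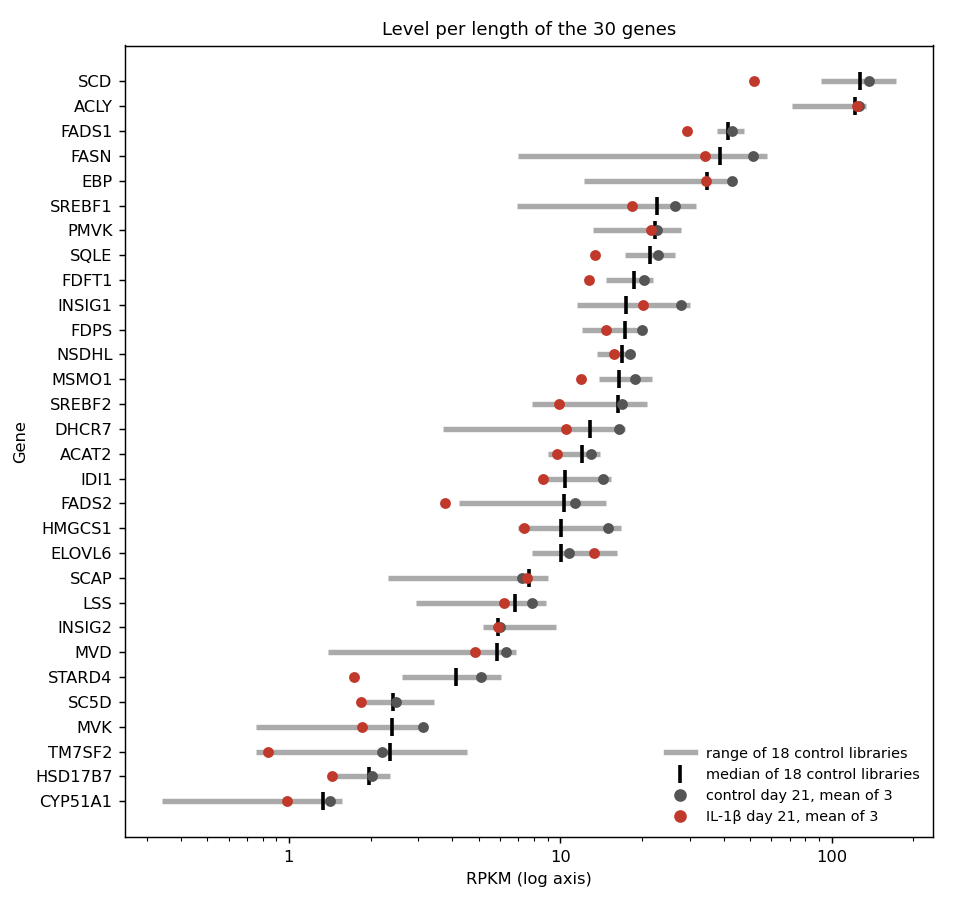
Level per exonic length (RPKM, log axis) of the 30 genes ordered by control median: grey bars give the range and black ticks the median of the 18 control libraries, grey circles the control mean and red circles the IL-1β mean of 3 libraries at day 21. The red circle lies left of the whole control range for SCD, FADS1, SQLE, FDFT1, MSMO1, IDI1, FADS2, STARD4 and SC5D and inside it for the other genes.

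Across the 6 times, the log2 difference was negative at every time for 16 of the 30 genes and at all 3 exposure times for 22. It was most negative at day 15 for 15 genes and at day 21 for 10. For 26 of the 30 it was nearer to 0 at withdrawal day 30 than at day 21. The order of the medians changed with the mitochondria-rich libraries. With a covariate marking them, the median over the 30 genes was lowest at withdrawal day 6 (-0.54), against -0.46 at day 21. With them left out it was lowest at day 15 (-0.47), with -0.42 at day 21 and -0.44 at withdrawal day 6. None of the 30 passed the test of a change in response between times, either from day 6 to day 21 (called for 0.0104% of all genes), from day 21 to withdrawal day 6 (0.141%) or from day 21 to withdrawal day 30 (0.73%). The medians of these changes over the 30 genes were -0.33, 0.13 and 0.43. A time course of the response is therefore a description of the medians and not a tested difference. Untreated cells of withdrawal day 30 and of day 6 did not differ in a called way for any of the 30 genes (0.0104% of all genes were called), with a median of -0.18.

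The level of the 30 genes moved with the mitochondrial share in untreated cells too. In control libraries, 23 of the 30 genes were lower in the 6 mitochondria-rich libraries than in the other 12, with a median log2 difference of -0.38 against -0.07 over all genes. The difference was largest for FASN (-1.55), CYP51A1 (-1.37) and MVD (-1.21). The 10 genes that were called under IL-1β had values from -0.91 to 0.20, with a median of -0.25, and the 20 others from -1.55 to 0.48, with a median of -0.63. FDFT1 (-0.03), FADS1 (-0.08) and MSMO1 (-0.09) hardly moved with the share and were called at day 21. TM7SF2 (-0.91) and FADS2 (-0.79) moved with it and were called as well. The fit behind these calls had no term for the share, so movement with it could widen a gene's spread and make a call harder. At days 15 and 21 it could also enlarge a fall, because the mitochondria-rich libraries there were IL-1β libraries only. The 10 and the 20 genes therefore cannot be compared to learn whether the response depends on the share.

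Within the 25 libraries of low share, the median of the 30 genes relative to the control mean was 0.02 to 0.31 in the 12 control libraries and -0.43 to -0.04 in the 13 IL-1β libraries, so the arms did not overlap. Within the 11 mitochondria-rich libraries the medians were -0.45 to -0.14 in 6 control libraries and -0.84 to -0.28 in 5 IL-1β libraries, which overlapped. Of the 15 called differences, 14 were called with those 11 left out as well, the exception being FDFT1 at withdrawal day 6 (log2 -0.55, edgeR adjusted p = 0.152). The STARD4 and SCD calls of withdrawal day 6 then rest on 1 control library, which is assumed to vary like the libraries of the other groups, so they are no check of that library. With the share as a covariate, all 15 were called. What the mitochondrial share contributed to the size of the response was otherwise not tested.

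**Figure D5:**
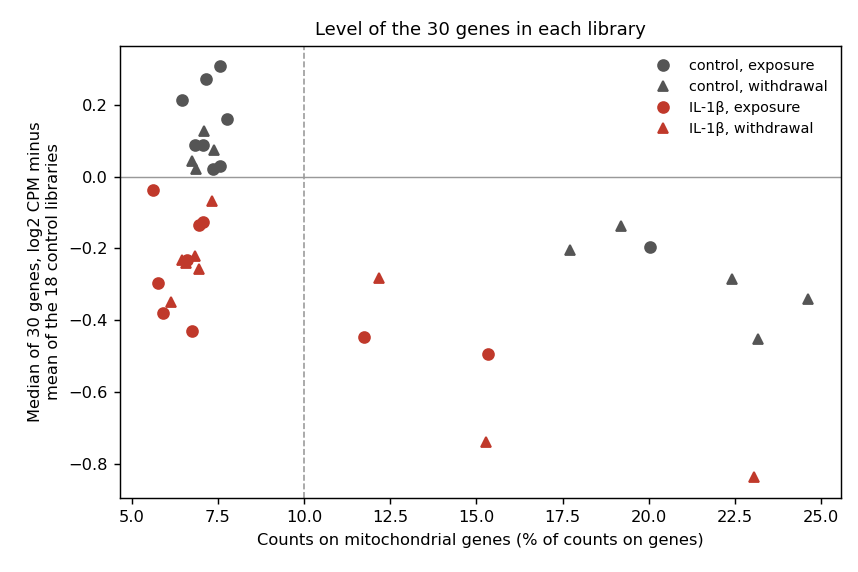
Median over the 30 genes of log2 CPM minus its mean in the 18 control libraries (vertical axis) against the percentage of counts on mitochondrial genes (horizontal axis) in each of the 36 libraries, with circles for exposure and triangles for withdrawal; the dashed line marks 10%. Left of the line all control libraries (grey, 0.02 to 0.31) lie above all IL-1β libraries (red, -0.43 to -0.04), and right of it both arms lie lower.

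Genes that take up, esterify, export or elongate lipids were counted from a second list of 40 genes, all tested. Their median log2 difference lay between -0.11 and 0.08 at the 6 times. At day 21, 3 of the 40 were called lower and 2 higher, against 3.09% and 3.31% of all genes. The other times had 0 or 1 of the 40 called lower and 1 to 3 higher. Of all genes, 0.511% to 3.11% were called lower and 0.683% to 3.32% higher at those times. TMEM97, an endoplasmic reticulum protein that binds NPC1 and responds to sterol depletion, was lower at 5 of the 6 times, with a log2 difference of -0.67 ± 0.14 at day 21 (edgeR adjusted p = 0.00210). ELOVL5 (-0.36) and ELOVL7 (-0.44), elongases of polyunsaturated and long-chain fatty acids, fell at day 21 only, and NPC2, a partner of NPC1 in lysosomal cholesterol export, rose at day 6 only (0.46). ACSL4, which activates arachidonic acid, rose at all 3 exposure times, by 1.06 ± 0.20 at day 21 (edgeR adjusted p = 0.000806), and ACSL5, another acyl-CoA synthetase, rose by 1.55 ± 0.38 (edgeR adjusted p = 0.00850). After withdrawal ACSL4 was called higher at day 6 and ACSL5 at day 15. None of the 6 genes listed for LXR nuclear receptors and sterol efflux (NR1H2, NR1H3, ABCA1, ABCG1, MYLIP and LPCAT3) was called at any time. The ABCA1 differences after withdrawal, not called, were 1.52, 1.31 and 1.23. NPC1, which moves cholesterol out of lysosomes, was higher at withdrawal days 15 and 30, by 0.96 ± 0.22 and 1.28 ± 0.22 (edgeR adjusted p = 0.0187 and 0.00138), and LPIN1, a phosphatidate phosphatase, at withdrawal days 6 and 15 (0.67 and 0.80).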

How the data were processed

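RNA-seq libraries of A549 cells were prepared with a stranded mRNA kit, per the labels. The authors aligned single-end reads to GRCh37 and counted reads per Ensembl gene with HTSeq, and the deposited values are raw counts, 1 table per library, without normalization. The submitters' processing notes name bcl2fastq 2.17, TopHat2 2.0.14, Bowtie2 2.2.5 and HTSeq 0.6.1. The strand setting and the annotation release are not given in the sources used here. Reads on no gene (8.48% to 18.6%) and ambiguous reads (2.62% to 4.18%) were left out. Counting could split reads between near-identical copies and overlapping genes.

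Groups and replicate numbers were taken from the labels. All 36 libraries were fitted together in edgeR 4.0.16 (R 4.3.3) with 12 groups as terms, TMM normalization, filterByExpr and the quasi-likelihood F-test (24 residual degrees of freedom), and p-values were adjusted by Benjamini-Hochberg over 19180 genes. A gene was called at an adjusted p below 0.05, and separately with a more than 2-fold difference. SE is the log2 fold change divided by the root of F. CPM use TMM-scaled library sizes, and RPKM use merged exons of a GENCODE annotation lifted to GRCh37. The scripts were tested on simulated counts. No 2 replicates agreed within sampling noise (chi-square per degree of freedom of their counts 3.81 or more in 36 pairs). The alternatives were other scalings and filters, DESeq2 1.42.0, separate fits, a replicate term, leaving out each replicate, and leaving out or adjusting for mitochondria-rich libraries.

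The genes and lists were chosen with earlier results of these data known. Values per library are given for the 10 genes called at 1 or more times and for HMGCS1, INSIG1, SREBF1, SREBF2, SCD and FASN whatever their change.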

Additional observations from a re-analysis of the deposited data

Results flagged for a closer look

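Of the 30 genes and the 40 of the second list, 1 had a response that differed between times by a test of the difference itself. The log2 response of NPC1, a gene of the second list that moves cholesterol out of lysosomes, was 1.53 ± 0.31 higher at withdrawal day 30 than at day 21 of exposure (edgeR quasi-likelihood test, adjusted p = 0.00847), a contrast in which 0.73% of all genes tested were called. At day 21 the NPC1 difference was -0.24 ± 0.22 and was not called, and at withdrawal day 30 it was 1.28 ± 0.22.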

How the results depend on the processing

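Of 194 recomputed log2 differences for the 15 called gene and time point pairs, none changed sign, 155 were still called and 39 were not. DESeq2 size factors, DESeq2 and the replicate block kept all 15, and leaving out replicate 1 kept none. In the following counts, brackets after a count give the percentage of all genes in that fit called lower. Genes called at day 6 (0 of 30) became 1 with total counts only (1.24%) and 2 with at least 10 counts in every library (2%). They became 1 in the separate fit (2.22%) and 7 without mitochondria-rich libraries (3.33%). With a covariate marking those libraries, the genes called became 5 (3.74%), and with the replicate block added to it 4 (3.68%). At day 15 (3) they became 1 in the separate fit (1.27%) and 17 without mitochondria-rich libraries (5.44%), ELOVL6 among them as called higher. They became 7 with the covariate (4.58%) and 8 with covariate and block (4.6%). At day 21 (9) they became 17 in the separate fit (6.25%) and 15 without mitochondria-rich libraries (5.06%). At withdrawal day 6 (3) they became 1 with total counts (0.714%), 5 with at least 10 counts (1.1%) and 5 with DESeq2 (0.631%). They became 0 in the separate fit, which called 1 of 16637 genes, so that 0 cannot set the 30 genes apart. With the covariate they became 14 (2.29%), 13 lower and ELOVL6 higher. With covariate and block they became 12, 11 lower and 1 higher, where 417 of 19180 genes were called lower. At withdrawal day 15 (0) they became 1 with the covariate, with the block (1.13%) or without it (0.965%). Leaving out 1 replicate gave 0 to 8 genes at day 15 (0.687% to 3.02%), 0 to 10 at day 21 (0.713% to 2.39%) and 0 to 8 at withdrawal day 6 (0.0573% to 0.953%). It gave 0 to 1 at withdrawal days 15 (0.0359% to 0.529%) and 30 (0.0156% to 0.651%). The causes were not tested, except that fewer libraries entered those fits.

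The median difference at day 6 (-0.20) moved to -0.13 with total counts only, -0.33 without mitochondria-rich libraries, -0.36 with the covariate, -0.34 with covariate and block, and -0.376 to -0.037 when 1 replicate was left out. The median at day 15 (-0.46) moved to -0.53 with total counts. Total counts only shifted the median of all genes at withdrawal day 15 to 0.21 and that of the 30 genes to 0.01, so they stayed lower relative to all genes.

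With the replicate number as a block, 1, 6, 9, 6, 0 and 0 genes were called lower at the 6 times in order, against 2.3%, 3.69%, 3.61%, 1.3%, 0.798% and 0.907% of all genes. The main fit had no replicate term, because the labels do not say that the numbers pair the libraries. Deviations of same-numbered libraries correlated above 0.1 in 14 of 18 pairs of a control and an IL-1β library of 1 time point. The mean correlation was 0.279, with values from -0.34 to 0.72, so same-numbered libraries tended to deviate together. The main fit does not allow for that.

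With 3 libraries a group in 1 cell line, the standard errors of the called values were 0.14 to 0.58 on the log2 scale. A gene that was not called is therefore not shown to be unchanged. TM7SF2, at 0.812 to 15.4 CPM over all libraries, rests on the fewest counts of the called genes. ACACA was not analysed here.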
